A study of Mus musculus with 6 samples.

Results

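The phagocyte NADPH oxidase was followed here through 6 of its subunit genes, *Cybb*, *Cyba*, *Ncf1*, *Ncf4*, *Rac1* and *Rac2*, which were taken by name from the 55538 features of a single-cell RNA-seq count table of mouse peritoneal cells. All 6 were found in the table. Their mRNA was described in 3 classes of cells, set by the counts of marker genes, namely 2948 B cells, 514 T/NK cells and 2773 macrophages (MΦs) of 7665 cells kept from 7760 barcodes.

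The study asked how resident peritoneal MΦs of adult C57BL/6 mice respond to apoptotic cells. Cells from the peritoneal lavage of 3 mice were pooled per group, plated to select adherent cells, and sequenced as 1 library for each of 6 groups: MerTK +/+ and MerTK -/- cells (the latter named MerKD in the labels, with a germline allele of the efferocytosis receptor gene *Mertk*) with a media change only, or after 2 h or 6 h of co-culture with UV-treated human Jurkat T cells. The number that marks a library in the table was not matched to a genotype or a time, so the groups were not compared, and values are given for each of libraries 1 to 6 and for their pool. With 1 library per group and pooled animals there was no replicate, so no test was made. Intervals are 95% and cover counting error only.

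The oxidase makes superoxide by passing electrons from NADPH across a membrane to oxygen. *Cybb* encodes gp91phox (NOX2), the catalytic subunit, and *Cyba* encodes p22phox, its membrane partner, which NOX2 needs to mature. *Ncf1* (p47phox) and *Ncf4* (p40phox) belong to the cytosolic part and move to the membrane when a cell is stimulated, together with a GTP-loaded Rac GTPase. *Rac1* is expressed by most cell types and *Rac2* mainly by blood cells. In MΦs the enzyme acts at the plasma membrane and on phagosomes, and B cells are also known to carry it.

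In the mouse genome (GRCm38, GENCODE vM21) the subunit genes lie apart. *Cybb* lies on the reverse strand of chromosome X, chrX:9435252-9487771, and *Cyba* on the reverse strand of chromosome 8, chr8:122424776-122432930. *Ncf1* (chr5:134220053-134229625) and *Rac1* (chr5:143503634-143528036) share chromosome 5, both on the reverse strand. *Ncf4* (chr15:78244801-78262580, forward strand) and *Rac2* (chr15:78559167-78572783, reverse strand) share chromosome 15. *Ncf1*, *Rac1* and *Cyba* each overlap a gene on the opposite strand (*Gtf2ird2*; *Daglb* and *Gm42502*; *Gm20388*), and how the counting treated strand is not given in the sources used here. All 6 are protein-coding.

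RefSeq promoter windows (GRCm38.p6, 250 bases before to 50 after the start) were found for 3 of the 6 members. These were the membrane partners *Cybb* and *Cyba* and the cytosolic *Ncf1*, and no window was available for *Ncf4*, *Rac1* or *Rac2*. The 100 bases before each start are printed 5′ to 3′ on the gene's strand, with matches in capitals to 3 motifs searched on both strands, the PU box core (GAGGAA), the GC box core (GGGCGG) and the CCAAT box (CCAAT). The windows are chrX:9469325-9469424 for *Cybb*, chr8:122432941-122433040 for *Cyba* and chr5:134229626-134229725 for *Ncf1*, all on the reverse strand.
Cybb: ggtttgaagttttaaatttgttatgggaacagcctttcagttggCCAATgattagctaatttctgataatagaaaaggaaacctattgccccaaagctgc
Cyba: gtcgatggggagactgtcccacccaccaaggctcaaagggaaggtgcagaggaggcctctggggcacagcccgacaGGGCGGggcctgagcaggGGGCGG
Ncf1: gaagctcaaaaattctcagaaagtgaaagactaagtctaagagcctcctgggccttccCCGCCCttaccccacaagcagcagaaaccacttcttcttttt

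*Cybb* had a CCAAT box from base -56 to base -52 and no GC box in its window. *Cyba* had GC boxes from -24 to -19 and from -6 to -1, and *Ncf1* had 1 on the other strand from -42 to -37. Only *Cybb* among these windows held a PU box core, on the other strand from base 10 to base 15 after the start, shown in capitals within 30 bases around it (chrX:9469298-9469327, reverse strand).
Cybb PU box: tgctgttttcatTTCCTCatcagaagaaga
Of all 32851 windows of this length, 28.3% held the PU box core, 35.7% the GC box core and 37.4% the CCAAT box, and no 2 of the matches in these windows overlapped. The *Cybb* window was poor in G and C (35.3%, with 1 CpG), against 60.7% and 9 CpGs for *Cyba* and 54.0% and 3 CpGs for *Ncf1*, while the median over all windows was 52.7% and 7 CpGs. The RefSeq start of *Cybb* lies inside the longer GENCODE gene, so transcripts that start elsewhere have other promoters. Letters in a window are a description and say nothing of which factor binds there.

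The libraries held between 4234786 and 10287079 UMIs (unique molecular identifiers, which count molecules), with a median of 2776 to 5786.5 UMIs per barcode, and library 6 was the shallowest. A barcode sequence was found under more than 1 library number in 28 cases. B cells were called at 4 or more UMIs of *Cd79a* plus *Cd79b*, T/NK cells at 2 or more of *Cd3d*, *Cd3e* and *Nkg7* together, and MΦs at 2 or more of *Csf1r*, *Adgre1* and *Fcer1g* together with at most 2 of the B cell genes and 1 of the T/NK genes. MΦs were split into 584 Gata6 MΦs, 237 Tnf MΦs, 233 Irf4 MΦs, 1675 undivided MΦs with none of these genes above its threshold, and 44 mixed ones. Another 153 cells met both lymphocyte gates and 1277 met none.

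The classes were checked on markers that neither the gates nor the split of MΦs had used. *Lyz2* was at 15081 CPM (counts scaled to 1000000 UMIs of a class) in MΦs, 245 CPM in B cells and 1914 CPM in T/NK cells, and the 7 MΦ markers of this kind summed to 17595, 326 and 2267 CPM. The 7 B cell markers summed to 3661 CPM in B cells, 263 CPM in T/NK cells and 27.4 CPM in MΦs, and the 7 T cell markers to 58.7, 2147 and 13.2 CPM. The summed markers of small peritoneal MΦs (SPMs), without *Irf4*, were at 21786 CPM in Irf4 MΦs and 3036 CPM in Gata6 MΦs, and those of large peritoneal MΦs (LPMs), without *Gata6*, at 1828 and 4913 CPM. The SPM sum does not set these cells apart from B cells, where it was 13078 CPM. *Cd74* made up much of it, at 10759 CPM in Irf4 MΦs and 11425 CPM in B cells. Of 11 neutrophil markers, 5 (*Ly6g*, *Ngp*, *Ltf*, *Mpo* and *Elane*) had no UMI in MΦs, and the list summed to 73.95 CPM, from 24.4 to 102 CPM across libraries, most of it *Csf3r* (48.0 CPM). The 7 eosinophil markers summed to 19.4 CPM, nearly all *Siglecf* (19.1 CPM), with *Prg2*, *Epx*, *Ear1* and *Ear6* at 0, and the 7 mast cell markers to 73.3 CPM, nearly all *Hdc* (70.9 CPM), with *Cpa3* and *Ms4a2* at 0. The Jurkat reporters eGFP and mGFP were listed at 0 UMIs in MΦs.

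*Cybb*, the catalytic subunit, was the member with the highest ratio of MΦs to lymphocytes, at 2234 CPM (2209–2259) against 178 CPM (172–184) in B cells and 244 CPM (221–267) in T/NK cells. In MΦs of libraries 1 to 6 it was at 2507, 2329, 1240, 2563, 2620 and 1206 CPM. In B cells the same libraries gave 247, 218, 100, 177, 150 and 74.3 CPM. The lowest MΦ value lay above the highest B cell value, and libraries 3 and 6 were low in both classes. The pooled level was 12.6-fold higher in MΦs than in B cells (12.1–13.03), with the log2 ratio between 3.34 and 4.12 in the 6 libraries.

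The T/NK cells gave *Cybb* levels that ranged most widely, at 664, 134, 127, 18.8, 74.2 and 44.4 CPM in libraries 1 to 6, the last 3 from 3, 9 and 2 UMIs. The pooled ratio of MΦs to T/NK cells was 9.17 (8.35–10.1), and library 1 held 293 of the 443 UMIs. Without library 1 the log2 ratio of MΦs to T/NK cells was 4.26, against 3.19 with it. The *Cybb* UMIs of this class sat in a few cells: 57 T/NK cells with a UMI of a MΦ gate gene held 426 UMIs (1047 CPM), and the other 457 cells held 17, or 12.04 CPM (7.02–19.3). In these 457 cells *Cybb* was at 0.539% of the MΦ level.

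In B cells the *Cybb* UMIs were less confined to such cells. The 230 B cells with a UMI of a MΦ gate gene held 1079 of the 3288 *Cybb* UMIs, at 563 CPM (530–598). The 2718 B cells with no UMI of a MΦ gate gene held 2209 *Cybb* UMIs, 133 CPM (128–139), or 5.97% of the MΦ level, and each library gave between 71.6 and 174 CPM. In the same B cells *Lyz2*, *C1qa* and *C1qb* were at 0.0952%, 0.0940% and 0.119% of their MΦ levels, well below *Cybb*, while *Itgam* was at 1.96% and *Cd68*, above *Cybb*, at 9.51%. *Cybb* UMIs were seen in 44.9% of these B cells (43.0–46.8%) and in 3.501% of the T/NK cells chosen in the same way (2.01–5.62%). After each cell was thinned to 1500 UMIs, the shares were 18.1% (16.7–19.6%) and 1.36% (0.500–2.93%), so the classes remained apart at equal depth. Median depth before thinning was 5416 UMIs in all B cells and 2813.5 in all T/NK cells. How much of the signal in either class was free RNA or MΦ RNA caught in the same droplet was not tested.

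**Figure D1:**
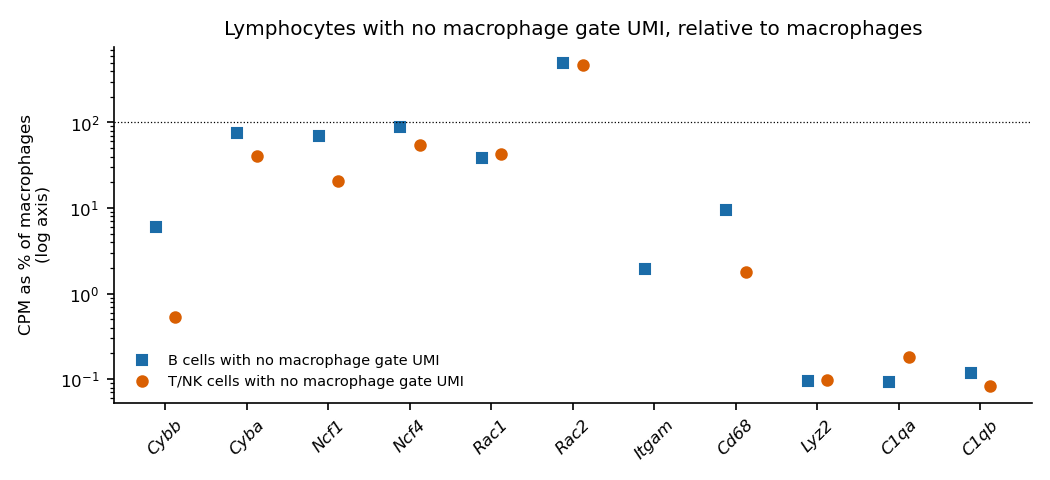
Level of each oxidase subunit and of MΦ markers in B cells (squares) and T/NK cells (circles) that had no UMI of *Csf1r*, *Adgre1* or *Fcer1g*, as a percent of the CPM in MΦs on a log axis; the dotted line marks the MΦ level, and *Itgam* had no UMI in these T/NK cells. *Cybb* lay at 5.97% in B cells and 0.539% in T/NK cells, while *Lyz2* lay near 0.1% in both.

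*Cyba*, the membrane partner, was found in every class, with smaller ratios of MΦs to lymphocytes than *Cybb*. It was at 697 CPM (683–711) in MΦs, 535 CPM (525–546) in B cells and 368 CPM (341–397) in T/NK cells. Across libraries it ran from 439 to 1182 CPM in MΦs (median 644 CPM), from 404 to 643 CPM in B cells (median 512 CPM) and from 289 to 488 CPM in T/NK cells (median 309 CPM), so the ranges of MΦs and B cells overlapped. The MΦ level was 1.301-fold that of B cells (1.27–1.34) and 1.89-fold that of T/NK cells (1.75–2.05), higher in 6 of 6 libraries in both cases. The ratio to B cells ran from 1.03 in library 5 to 1.84 in library 3, and that to T/NK cells from 1.44 to 3.29 across libraries. In the 457 T/NK cells with no MΦ gate UMI *Cyba* was at 286 CPM (259–316), or 41.1% of the MΦ level. On totals without immunoglobulin, ribosomal protein and mitochondrial genes the B cell difference turned, to a log2 ratio of -0.06, while the median of all genes tested moved from -0.18 to -0.63.

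The cytosolic subunits *Ncf1* and *Ncf4* were low, and both were found in every class. *Ncf1*, the organiser that is phosphorylated on activation, was at 81.6 CPM (76.9–86.5) in MΦs, 57.9 CPM (54.5–61.5) in B cells and 23.6 CPM (17.1–31.9) in T/NK cells. Across libraries it ran from 37.6 to 94.5 CPM in MΦs, 35.2 to 74.1 CPM in B cells and 17.3 to 44.4 CPM in T/NK cells, the last from 2 to 15 UMIs a library. The *Ncf1* level in MΦs was above that in B cells in 5 of 6 libraries and below it in library 3. *Ncf4*, which binds a phagosome lipid, was at 62.7 CPM (58.6–67.0) in MΦs, 54.6 CPM (51.3–58.1) in B cells and 40.1 CPM (31.5–50.5) in T/NK cells, and it was higher in MΦs than in B cells in 4 of 6 libraries. The log2 ratio of *Ncf4* in MΦs over B cells, 0.20 on all UMIs, was -0.24 on the totals described for *Cyba*.

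*Rac1* and *Rac2* ran in opposite directions. *Rac1* was at 269 CPM (260–277) in MΦs, from 205 to 393 CPM across libraries, against 105 CPM (101–110) in B cells, from 64.4 to 156 CPM, and 131 CPM (115–149) in T/NK cells, from 72.5 to 190 CPM. Every library of MΦs lay above every library of both lymphocyte classes. *Rac2* was at 543 CPM (533–554) in B cells, from 329 to 623 CPM, at 506 CPM (474–540) in T/NK cells, from 379 to 594 CPM, and at 112 CPM (106–117) in MΦs, from 70.8 to 146 CPM. The MΦ libraries all lay below the lymphocyte libraries. *Rac2* was 4.87-fold higher in B cells than in MΦs (4.61–5.14) and 4.54-fold higher in T/NK cells than in MΦs (4.18–4.93).

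**Figure D2:**
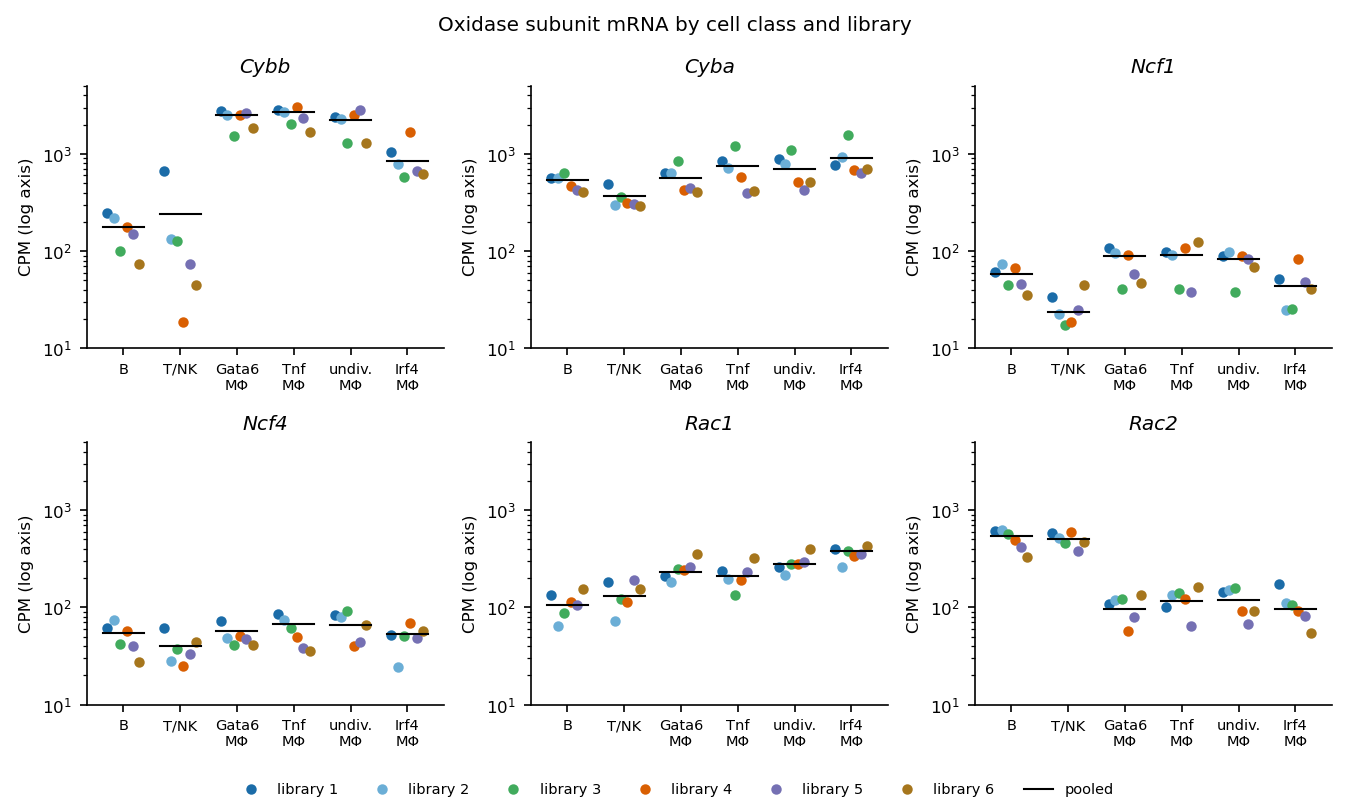
CPM of each subunit (log axis) in B cells, T/NK cells and 4 groups of MΦs, 1 point per library and a line at the pooled value. *Cybb* lay at 178 CPM in B cells and 2536 CPM in Gata6 MΦs, *Rac2* lay at 543 CPM in B cells and 96.6 CPM in Gata6 MΦs, and *Cyba*, *Ncf1* and *Ncf4* differed less.

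A gene was called higher or lower where the log2 ratio of pooled CPM, with 1 CPM added, was at least 1 in size, among genes with at least 5 CPM in either class. Of the 6 members, 2 were at least 2-fold higher in MΦs than in B cells, *Cybb* and *Rac1*, beside 19.4% of 10256 genes, and 1 was lower, *Rac2*, beside 24.0% of them. On totals without immunoglobulin, ribosomal protein and mitochondrial genes the shares of all genes were 14.5% higher and 37.0% lower over B cells, and 14.0% and 39.2% over T/NK cells. Against T/NK cells 3 members were higher, *Cybb*, *Ncf1* and *Rac1*, beside 19.7% of 10450 genes, and again *Rac2* was lower, beside 26.8%. The median log2 ratio of the members was 0.43 over B cells and 0.97 over T/NK cells, and that of all genes tested was -0.18 in both comparisons. *Rac1* was near the threshold against T/NK cells, at a log2 ratio of 1.03, and *Cyba* just below it, at 0.92. Without library 2, 3 or 6 *Rac1* fell short of the threshold there, and without library 4 *Cyba* passed it. *Cyba* also passed it, at a log2 ratio of 1.28, where lymphocytes with a MΦ gate UMI were left out. On the same other totals *Rac1* over B cells was at 0.91 and over T/NK cells at 0.61, below the threshold.

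**Figure D3:**
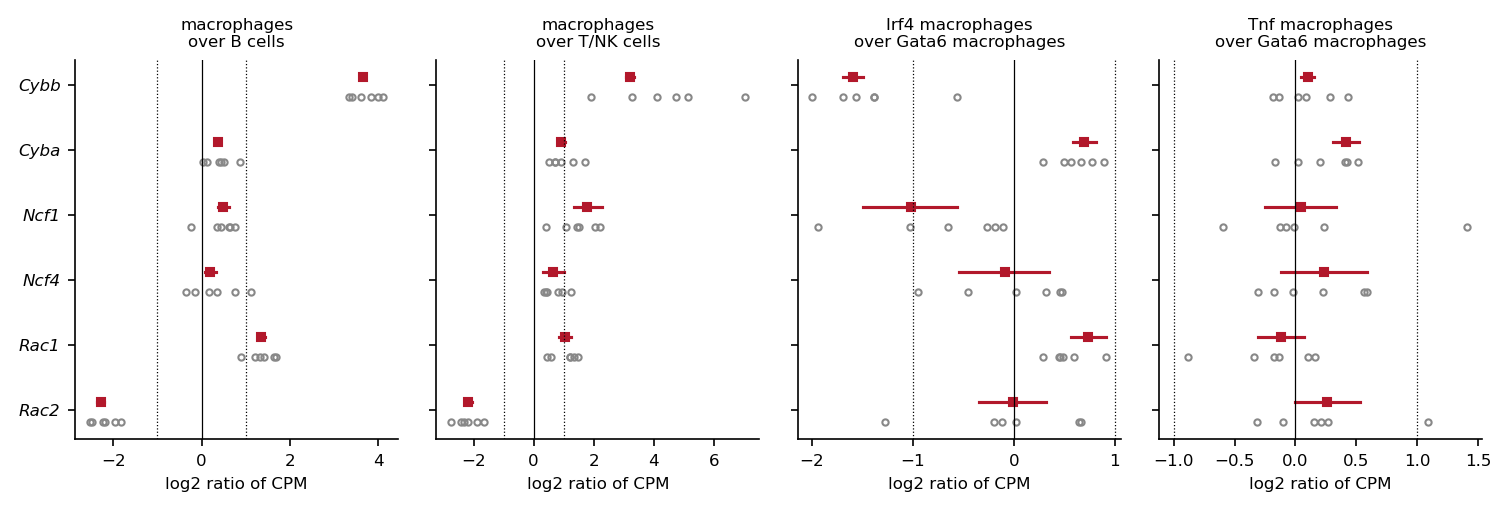
Log2 ratios of CPM for each member in 4 comparisons: squares are pooled values without added CPM, with 95% counting intervals, open circles the 6 libraries, and dotted lines mark 2-fold. *Cybb* and *Rac2* lay beyond 2-fold on opposite sides in every library when MΦs were set against B cells, and in Tnf over Gata6 MΦs no pooled value passed 2-fold.

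Read as a share, *Rac2* made up 83.8% of *Rac1* plus *Rac2* UMIs in B cells (83.1–84.4%), 79.4% in T/NK cells (77.0–81.7%) and 29.4% in MΦs (28.1–30.6%). UMIs are not scaled to gene length, so only the change of this share between classes is read. By library the share ran from 67.9% to 90.6% in B cells, from 66.7% to 87.6% in T/NK cells and from 19.1% to 40.1% in MΦs. The MΦ libraries did not overlap those of either lymphocyte class. Within MΦs it was 29.6% in Gata6 MΦs (26.9–32.3%), 35.3% in Tnf MΦs (31.1–39.6%), 29.5% in undivided MΦs (27.9–31.2%) and 20% in Irf4 MΦs (16.6–23.7%). The Irf4 value leaned on library 6, at 11.2%, which held 109 of the 233 cells, while libraries 1 to 5 gave 18.5% to 30.3%, and the 6 Gata6 libraries 19.1% to 39.5%.

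**Figure D4:**
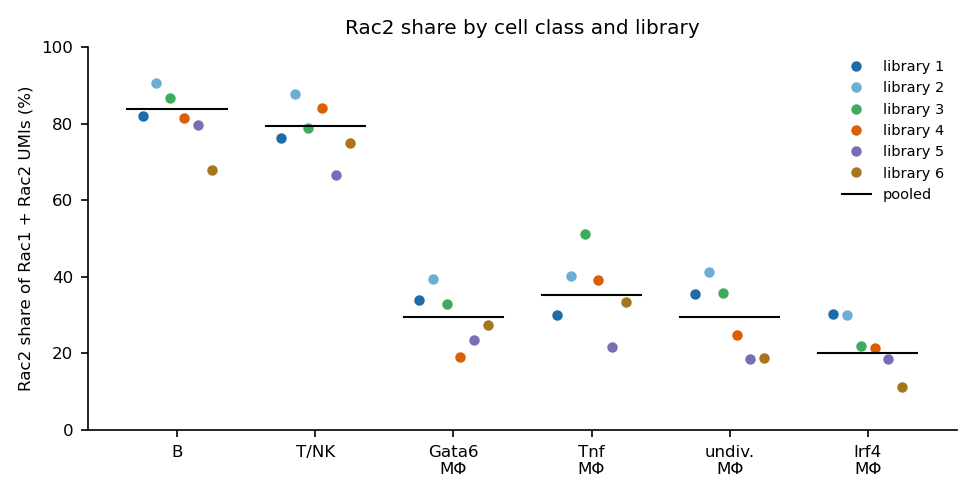
*Rac2* as a percent of *Rac1* plus *Rac2* UMIs in each class, 1 point per library and a line at the pooled value. Lymphocyte libraries lay between 66.7% and 90.6%, and MΦ libraries lower in every group shown.

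Within MΦs, *Cybb* was lower in the Irf4 group, which carried the SPM markers, than in the Gata6 group, which carried those of LPMs. Pooled levels were 840 CPM (786–897) in Irf4 MΦs, 2219 CPM (2185–2253) in undivided MΦs, 2536 CPM (2483–2590) in Gata6 MΦs and 2723 CPM (2641–2806) in Tnf MΦs. In Irf4 MΦs libraries 1 to 6 gave 1055, 784, 579, 1695, 662 and 616 CPM, and in Gata6 MΦs 2766, 2534, 1519, 2513, 2641 and 1827 CPM. The Irf4 value was below the Gata6 value in 6 of 6 libraries, although library 4 of the Irf4 group lay above library 3 of the Gata6 group. Pooled, *Cybb* was 3.02-fold higher in Gata6 than in Irf4 MΦs (2.82–3.24). The pool weighs libraries unequally, as library 6 held 109 of the 233 Irf4 cells and 51 of the 584 Gata6 cells. By library the ratio of Irf4 to Gata6 MΦs ran from 0.251 in library 5 to 0.674 in library 4, the latter within 2-fold. *Cybb* libraries of the Gata6, Tnf and undivided groups overlapped widely.

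*Cyba* and *Rac1* went the other way, within 2-fold. *Cyba* was at 913 CPM (856–972) in Irf4 MΦs and 563 CPM (538–588) in Gata6 MΦs, a ratio of 1.62 (1.5–1.75), and higher in 6 of 6 libraries with ratios from 1.22 to 1.86. *Rac1* was at 384 CPM (348–423) and 230 CPM (215–247), a ratio of 1.67 (1.48–1.88), also higher in 6 of 6 libraries. *Cybb* and *Cyba*, whose products form 1 membrane complex, thus differed in direction between the same MΦ groups.

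*Ncf1* was at 44.2 CPM in Irf4 MΦs (32.5–58.8) and 89.4 CPM in Gata6 MΦs (79.6–99.9). Its ratio with 1 CPM added was -0.999 on the log2 scale, just short of the threshold, so it was not called, although without library 4 or library 5 it was. *Ncf1* was lower in Irf4 MΦs in 6 of 6 libraries, on 2 to 15 UMIs each. *Ncf4* (53.6 CPM against 57.1 CPM) and *Rac2* (96.0 CPM against 96.6 CPM) had ratios of 0.940 (0.687–1.27) and 0.993 (0.787–1.24). Of the 6 members, 1 was at least 2-fold lower in Irf4 MΦs, *Cybb*, beside 8.57% of 9380 genes, and 0 were higher, beside 12.5%.

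Markers of other cells moved with the Irf4 group. Its 9 B cell markers summed to 135 CPM against 6.40 CPM in Gata6 MΦs, with 34.0 to 313 CPM across libraries, and B cells themselves were at 5517 CPM. Its 7 eosinophil markers summed to 150 CPM against 0.582 CPM, nearly all from *Siglecf* (149 CPM), with *Prg2*, *Epx*, *Ear1* and *Ear6* at 0. Its 8 dendritic cell markers summed to 85.6 CPM against 15.1 CPM, from 29.8 to 478 CPM across libraries. Among them *Ccr7* was at 43.3 CPM against 6.99 CPM and *Zbtb46* at 19.8 CPM against 5.24 CPM. *Cd209a*, *Siglech*, *Kit* and *Flt3* were also higher in Irf4 MΦs, on few UMIs, while *Xcr1* and *Clec9a* were at 0 there. In the other direction, 7 mast cell markers summed to 16.9 CPM against 119 CPM and 11 neutrophil markers to 29.2 CPM against 96.9 CPM, with *Cpa3*, *Ms4a2* and *Ly6g* at 0 in both groups. The part of these markers in the *Cybb* difference was not tested. With MΦs of at least 4 gate UMIs and no lymphocyte gate UMI, the log2 ratio of *Cybb* in Irf4 over Gata6 MΦs was -1.45, against -1.59.

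Pooled over libraries, Tnf MΦs were close to Gata6 MΦs in every member. The Tnf group was cut without regard to *Gata6*, which was at 58.9 CPM there and 271 CPM in Gata6 MΦs. None of the 6 was 2-fold higher, beside 2.36% of 8895 genes, and none was 2-fold lower, beside 3.93%. The pooled ratios ran from 0.923 (0.810–1.05) for *Rac1* to 1.33 (1.24–1.43) for *Cyba*, which was higher in Tnf MΦs in 5 of 6 libraries. *Cybb* was 1.07-fold higher (1.04–1.11) and higher in 4 of 6 libraries. Ratios in single libraries spread further, to 2.70 for *Ncf1* in library 6, 2.14 for *Rac2* in library 4 and 0.541 for *Rac1* in library 3. In the same groups the summed inflammatory markers, *Tnf* among them, were at 26452 and 6501 CPM.

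At an equal depth of 1500 UMIs per cell, *Cybb* was seen in 91.6% of Gata6 MΦs (89.0–93.7%), 91.0% of Tnf MΦs (86.6–94.4%), 85.6% of undivided MΦs (83.7–87.2%) and 49.3% of Irf4 MΦs (42.6–56.1%). It was seen in 19.9% of B cells (18.4–21.4%) and 5.22% of T/NK cells (3.44–7.56%). *Rac2* was seen in 55.1% of B cells (53.2–56.9%), 56.6% of T/NK cells (52.1–61.0%) and 14.7% of MΦs (13.4–16.1%). *Cyba* was seen in 53.9% of MΦs, 46.5% of B cells and 33.3% of T/NK cells. *Ncf1* was seen in 11.1%, 8.21% and 3.01% of these, and *Ncf4* in 8.25%, 8.11% and 5.82%. Without thinning *Cyba* was seen in 79.8% of MΦs and 79.9% of B cells, and *Cybb* in 91.9% and 46.7%.

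**Figure D5:**
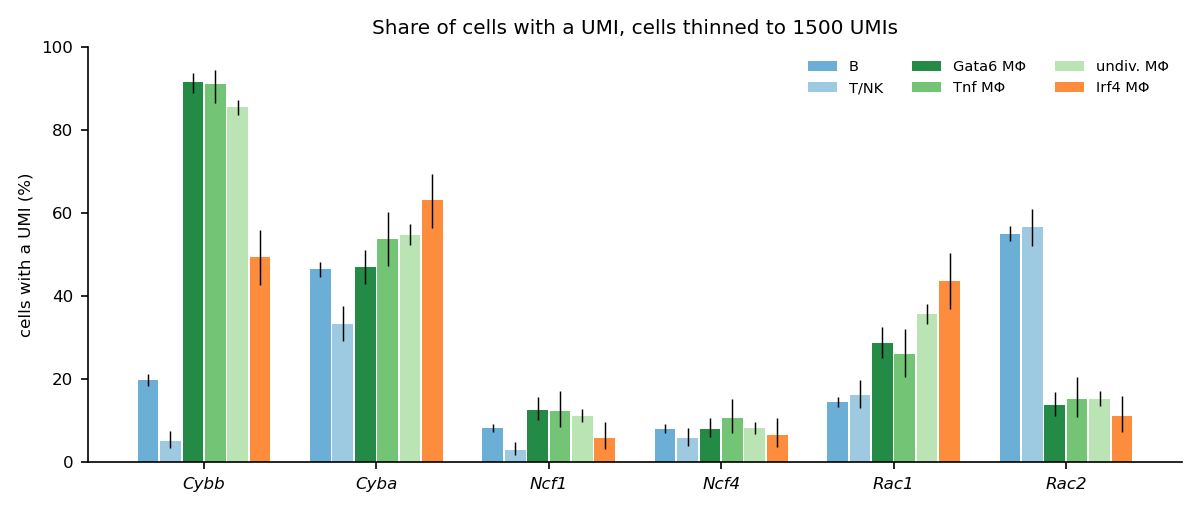
Share of cells with at least 1 UMI of each member (bars, %) after thinning to 1500 UMIs per cell, with exact 95% binomial intervals. *Cybb* stood at 91.6% in Gata6 MΦs and 49.3% in Irf4 MΦs, and *Rac2* at 55.1% in B cells and 13.9% in Gata6 MΦs.

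*Cybb* and *Cyba* were seen in the same cell in 44.5% of MΦs at this depth (42.6–46.4%), where the product of the separate shares was 45.2%. In B cells both were seen in 9.35% (8.31–10.5%), with a product of 9.24%, and in Irf4 MΦs in 32.4% (26.4–39.0%), with a product of 31.1%. In these classes the separate shares thus gave nearly the same values as the cells themselves. In T/NK cells both were seen in 2.61% (1.40–4.42%), or 13 cells, with a lower product of 1.74%. Detection of at least 4 members in 1 cell was rare, at 7.32% of MΦs (6.37–8.37%), 3.196% of B cells (2.59–3.90%) and 1.20% of T/NK cells (0.443–2.60%).

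Of 115 symbols listed for other genes of the oxidase pathway, 113 were in the table. The rest, *BC017643* and *Moesin*, are other names of the listed *Cybc1* and *Msn*. Of these genes 82 reached 20 CPM in B cells, T/NK cells or MΦs. Over B cells 25 of the 82 were at least 2-fold higher in MΦs and 20 lower, beside 19.4% and 24.0% of all genes tested, and over T/NK cells 28 were higher and 12 lower, beside 19.7% and 26.8%. The counts of the smaller lists are to be read against the same shares. On totals without immunoglobulin, ribosomal protein and mitochondrial genes these counts were 20 and 25 over B cells, and 18 and 17 over T/NK cells, so the balance of directions depended on the totals. Genes that remove superoxide and peroxide were higher in MΦs than in B cells in 7 of 10, and lower in 0 (6 and 1 on those totals). *Sod2*, mitochondrial superoxide dismutase, was at 980 CPM in MΦs and 70.6 CPM in B cells, *Prdx1*, a peroxidase, at 5664 and 354 CPM, and *Txnrd1*, thioredoxin reductase, at 1318 and 78.5 CPM. *Cat*, catalase, was at 93.8 and 21.85 CPM. In Irf4 over Gata6 MΦs 4 of the 10 were lower, beside 8.57% of all genes tested, and *Sod2* was at 323 against 1149 CPM.

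Exchange factors load small GTPases with GTP. A list of them for Rac and other small GTPases, together with the adaptor *Elmo1*, held 12 genes at 20 CPM. In MΦs 7 of the 12 were lower than in B cells and 1 higher (8 and 1 on those totals), beside 24.0% of all genes lower. Over T/NK cells 4 were lower, 1 higher and 7 between. *Dock10* was at 17.999 CPM in MΦs and 106 CPM in B cells, *Dock8* at 11.5 and 52.5 CPM, *Swap70* at 27.4 and 129 CPM, and *Vav2* at 6.89 and 31.9 CPM. *Vav3* was the one higher in MΦs, at 33.0 against 4.87 CPM. Of 5 Rac GTPase-activating genes 3 were higher and 1 lower (2 and 2 on those totals). *Rhoh*, which encodes a GTPase of blood cells, was at 18.5 CPM in MΦs and 144 CPM in B cells, and the Rac GTPase-activating gene *Arhgap15* at 5.88 CPM in MΦs and 103 CPM in T/NK cells.

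Among kinases and lipases that prime the oxidase, 5 of 19 were higher in MΦs than in B cells and 5 lower. *Prkcd*, a protein kinase C that phosphorylates p47phox, was at 161 CPM in MΦs and 35.7 CPM in B cells, and at 303 CPM in Irf4 MΦs. *Pla2g4a*, cytosolic phospholipase A2, was at 135 and 3.46 CPM, and *Pik3cd*, a leukocyte PI3-kinase, at 20.2 and 94.6 CPM. Of 9 oxidase regulators 3 were higher and 2 lower. *Coro1a*, an actin regulator that binds p40phox, was at 37.2 CPM in MΦs against 548 CPM in B cells. Genes of LC3-associated phagocytosis, which uses oxidase products, were at least 2-fold higher in MΦs than in B cells in 2 of 11 and lower in 2 (1 and 2 on those totals). Of genes for oxidase maturation and charge compensation, 0 of 3 passed 2-fold over B cells (1 was lower on those totals), and none of 9 other NADPH oxidase genes reached 20 CPM.

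Transcription factors known at oxidase promoters were higher in MΦs in 3 of 7 over B cells, and lower in 2. *Spi1*, which encodes PU.1, was at 402 CPM in MΦs, 95.5 CPM in B cells and 56.6 CPM in T/NK cells. *Cebpb* was at 629, 11.3 and 42.9 CPM, and *Cebpa* at 139 CPM in MΦs, 4.06 CPM in B cells and 12.1 CPM in T/NK cells. The T/NK class included 57 cells with a UMI of a MΦ gate gene, and their part in these T/NK values was not tested. *Spi1* was at 511 CPM in Irf4 MΦs and 399 CPM in Gata6 MΦs, where *Cybb* ran the other way. Of the 82 pathway genes, 10 were at least 2-fold higher in Irf4 than in Gata6 MΦs and 12 lower, beside 12.5% and 8.57% of all genes tested. In Tnf over Gata6 MΦs 1 was higher, beside 2.36%, and 0 were lower, beside 3.93%.

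The pattern of each member over classes and libraries was compared with that of 7250 genes, by Pearson's r of log2(CPM + 10) over 36 values (6 classes by 6 libraries, which share libraries, so r is a description). *Cybb* was most like *Fth1*, ferritin heavy chain (r = 0.975), *Ninj1* (0.975) and *Clec4e*, an innate lectin receptor (0.973). *Rac2* was most like *Gm8369* (0.946), *Sept1* (0.945) and *Gm1966* (0.943), and *Rac1* most like *Anxa5* (0.900), *Kif1c* (0.894) and *Tmem189* (0.892). *Cyba* had looser neighbours in *Atp6v0c-ps2* (0.855), *Rheb* (0.838) and *Bcl2a1b* (0.837), *Ncf1* in *Cd38* (0.763), *Evi5* (0.751) and *Itgb1* (0.739), and *Ncf4* in *Rap1a* (0.612), *Arpc1b* (0.601) and *Gatm* (0.599). Among the members themselves r was highest for *Cybb* and *Ncf1* (0.654) and lowest for *Cybb* and *Rac2* (-0.814), and *Cybb* and *Cyba* had 0.477.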

How the data were processed

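Peritoneal cells were sequenced with a 10x Genomics 5′ kit. Per the study's methods and the submitters' processing notes, the authors aligned reads to the human genome and to mm10 (GRCm38) with Cell Ranger (version 2.2 in the notes, an earlier one in the methods) and deposited raw UMI counts per mouse gene and barcode, not normalized, joined over 6 libraries. The annotation is not given in the sources used here, and 55341 of 55538 features carried a GENCODE vM21 symbol.

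The study's own limits were applied (500 genes per barcode, log genes divided by log UMIs not under 0.8, mitochondrial UMIs not over 10%), which left out 95 barcodes. No doublet caller was run and free RNA was not removed, but the 153 cells of both lymphocyte gates were set aside. Gata6 and Irf4 MΦs had at least 1 UMI of that gene, none of the other, and fewer than 2 of *Tnf*. Tnf MΦs had at least 2 of *Tnf* and none of *Irf4*, with any count of *Gata6*.

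UMIs were summed per class and divided by the class total to give CPM. Levels have exact Poisson, ratios exact conditional and shares Clopper-Pearson intervals at 95% (scipy 1.17.1, numpy 2.4.6, pandas 2.3.3, Python 3.11.15). Cells were thinned without replacement to 1500 UMIs, leaving out shallower ones. The code for ratios and intervals was checked on simulated counts with known ratios. Members, pathway lists, markers and gates were chosen with earlier results of these data known. Pathway genes named differ at least 4-fold between 2 of B cells, T/NK cells and MΦs, among those with 20 CPM or more, and the 3 genes of highest r are named for each member. Alternatives changed the gates, filters, totals, pooling, pseudocount, depth and libraries. The comparison of genotypes and times was not made. Some items are not reported here.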

Additional observations from a re-analysis of the deposited data

Results flagged for a closer look

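Cells outside the classes compared also carried oxidase mRNA. The 1277 cells that met no gate held *Cybb* at 279 CPM (263–295) and *Rac2* at 345 CPM (328–363), values between those of lymphocytes and MΦs for both genes. The 153 cells that met both lymphocyte gates held *Cybb* at 97.1 CPM (82.6–114) and *Rac2* at 570 CPM (534–608), at a median depth of 10045 UMIs against 5416 in B cells. These values stand outside the comparisons made, and how much of them was free RNA or RNA of several cells in a droplet was not tested.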

How the results depend on the processing

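No paired analysis was possible because each group has 1 library and the library numbers were not matched to groups, which holds for comparisons of groups only. Cell classes were set against each other within each library, and those ratios stand beside the pooled ones. Members at least 2-fold higher in MΦs than in B cells fell from 2 to 1 on totals without immunoglobulin, ribosomal protein and mitochondrial genes, where *Rac1* was no longer called, and stayed at 2 without any 1 library. Members changed in Irf4 over Gata6 MΦs went from 1 to 2, with *Ncf1* added, on those totals, at thresholds of 2 UMIs of *Gata6* and *Irf4* and 4 of *Tnf*, and without library 4 or library 5, so that leaving out 1 library gave 1 to 2. Members higher in MΦs than in T/NK cells ran from 2 to 4 around the main 3 over all alternatives. Members seen in a larger share of MΦs than of B cells, with intervals apart, were 4 at 1000, 1500 and 2500 UMIs per cell and 2 without thinning. At 1500 UMIs these were *Cybb*, *Cyba*, *Ncf1* and *Rac1*, and without thinning *Cybb* and *Rac1*. Those intervals count cells, which are not replicates, and the share of all genes that pass the same rule was not computed. The *Rac2* share in T/NK cells was 82.0% with no MΦ gate UMI, and in B cells 81.7% as a median over libraries. Leaving out 1 library gave 81.9% to 84.7% in B cells and 27.2% to 31.1% in MΦs. Of 432 recomputed member ratios, 367 stayed within the main counting interval, 65 left it, and 0 of the called ratios changed sign. Keeping cells of both lymphocyte gates among B cells, chosen after seeing the data, changed no member count. Depth limits the values by library, with as few as 2 UMIs of *Ncf1* and *Ncf4* in a library of T/NK cells or of Irf4 MΦs, and of *Cybb* in a library of T/NK cells. Counts over all genes moved by more than 1.5 times under some alternatives. In MΦs over B cells 1986 genes were higher and 2461 lower, against 1304 and 1097 with 10 CPM added, and 4017 were lower on the other totals. Over T/NK cells the counts of 2062 and 2797 became 1295 and 1345 with 10 CPM added, with 4423 lower on the other totals. In Irf4 over Gata6 MΦs 1168 and 804 became 564 and 296 with 10 CPM added and 1881 and 1516 with no minimum CPM, and 1244 and 1381 were lower by medians over libraries and at the higher thresholds. In Tnf over Gata6 MΦs 210 and 350 became 82 and 7, 492 and 975, 244 and 921, and 336 and 1024 under the same 4 alternatives, and 537 and 533 were lower without library 1 and library 4.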

Other observations

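Some members differed between libraries within a class more than counting error. *Cybb* in Gata6 MΦs was at 1519 CPM in library 3 and 1827 CPM in library 6, below the 2513 to 2766 CPM of the other 4 libraries, and in undivided MΦs the same 2 libraries were lowest, at 1289 and 1305 CPM, with the highest value at 2803 CPM. *Cyba* in MΦs was at 802, 740 and 1182 CPM in libraries 1 to 3 and at 509, 439 and 548 CPM in libraries 4 to 6. *Rac2* in MΦs split the same way, at 128, 137 and 146 CPM and at 87.7, 70.8 and 92.5 CPM. *Rac1* in MΦs was highest in library 6, at 393 CPM, and lowest in library 2, at 205 CPM. The conditions of these libraries are not assigned here.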
